A study of Mus musculus with 4 samples.

Results

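Mature CD4 single-positive thymocytes were described in the CD25− sort of a single-cell RNA experiment on wild-type and PD-1 knockout thymus. The cells were chosen by their own transcripts: at least 2 unique molecular identifiers (UMIs, which mark single captured transcripts) of Klf2 and S1pr1 together, at least 2 times as many of these as of Itm2a and Ccr9 together, no UMI of Foxp3, fewer than 2 of Ikzf2 and fewer than 3 of Mki67. This selection held 1561 of the 4885 kept cells of the CD25− gate, and of 23210 kept cells in the series, namely 1017 wild-type and 544 knockout-labelled cells. They are called mature cells below. The mirror selection, at least 2 UMIs of Itm2a and Ccr9 and at least 2 times as many of these as of Klf2 and S1pr1 with the same 3 exclusions, held 945 wild-type and 601 knockout-labelled cells, called the immature counterpart.

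The wild-type and the PD-1 knockout group were each thymocytes from C57BL/6J mice aged 3 weeks, with 4 thymi of a genotype pooled before CD8-bearing cells were depleted and live CD4+ HSA+ CD73− CD25− cells were sorted, per the labels' protocols. The listed stains name CD74 in place of CD73, and the sources used here do not give the allele of the knockout. Each group was 1 library, made with a kit that reads transcripts from the 5′ end, so there was no replicate, no test between groups was run, and every interval below is a 95% interval for counting error only. Differences are between these libraries, and genotype, pool and library cannot be told apart.

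CD4 single-positive thymocytes have passed positive selection on MHC class II and spend their last days in the medulla, where they lose the cortical and early medullary programme and gain the capacity to leave. The transcription factor KLF2 switches on S1PR1, the receptor through which cells sense sphingosine-1-phosphate in blood and lymph, together with integrin β7 (Itgb7), which guides lymphocytes to tissues of the gut. PD-1 is an inhibitory receptor that, when bound by PD-L1 or PD-L2, recruits the phosphatase SHP-2 and dampens signalling from the T cell receptor.

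The mature cells carried T cell transcripts, and markers of other cells were counted beside them. Cd4 was at 341 CPM (a gene's UMIs per 1000000 UMIs of the summed class) in wild-type and 321 CPM in knockout-labelled mature cells, and Cd3e at 1058 and 1304 CPM. Foxp3 was at 0 by the selection, and Zbtb16, Klrb1c, Ms4a1, Pax5, Lyz2, Itgax, Rag1, Rag2, Foxn1 and Krt5 were at 0 in both libraries, where a count of 0 allows up to 0.581 CPM in wild-type and 0.886 CPM in knockout-labelled cells. The 7 CD8 T cell markers summed to 314 CPM in wild-type and 344 CPM in knockout-labelled mature cells, against 201 and 188 CPM in the immature counterpart. Of these, Cd8a had 7 and 2 UMIs in mature cells and Cd8b1 stood at 47.0 and 54.0 CPM. Ctsw, a protease also found in other lymphocytes, stood at 214 and 243 CPM. The 8 double-positive markers summed to 60.2 and 65.0 CPM, the 13 Treg markers to 373 and 391 CPM, the 7 B cell markers to 137 and 132 CPM with Ighm at 110 and 101 CPM of them, and the 11 markers of effector or recirculating cells to 102 and 95.4 CPM. The 8 myeloid and dendritic cell markers summed to 82.1 and 68.8 CPM, so the genes at 0 do not stand for their whole lists. The 7 innate-like markers summed to 4.84 and 4.14 CPM and the 6 epithelial markers to 4.26 and 3.25 CPM. Tyrobp, an adaptor of innate cells, had 64 UMIs in wild-type and 0 in knockout-labelled mature cells. The part of cells of other lineages in the results was not tested.

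Transcripts of further antigens in the sort were also counted. Il2ra, which encodes CD25, had 1 UMI in wild-type and 3 UMIs in knockout-labelled mature cells of this CD25− gate. Cd24a, which encodes HSA, was at 5.23 CPM in wild-type and 4.73 CPM in knockout-labelled mature cells, against 63.0 and 52.8 CPM in the immature counterpart, so it was low in the mature cells of a sort on HSA protein. Nt5e, which encodes the CD73 of the sort's name, had 9 UMIs in wild-type and 1 UMI in knockout-labelled mature cells, and Cd74, named among the stains, was at 22.8 and 28.4 CPM.

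Pdcd1, the targeted gene (ENSMUSG00000026285, minus strand of chromosome 1, 94038305 to 94052553, mm10), had 40 UMIs (7.74 CPM) in wild-type and 14 UMIs (4.14 CPM) in knockout-labelled mature cells. The ratio of 0.53 had an interval from 0.27 to 1.00. In the immature counterpart Pdcd1 was at 22.3 and 33.7 CPM, a ratio of 1.51 (1.17 to 1.96), so the transcript was present in cells labelled as knockout. Which exons the allele removes is unknown here, and a 5′ read can lie outside them, so these counts do not check the label, and the library is called knockout-labelled throughout.

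The mature cells had a median of 5259 UMIs and 2151 genes in wild-type and 6279.5 UMIs and 2387.5 genes in knockout-labelled cells, with 5166905 and 3385597 UMIs in all. Ribosomal protein genes made up a median of 23.5% and 25.4% of their UMIs. A shallow set stood apart: 237 wild-type (23.3%) and 81 knockout-labelled (14.9%) mature cells had under 10% of their UMIs from ribosomal protein genes, with a median of 1791 and 2039 UMIs. Because this set was unequal between the libraries, leading counts are also given without it. No barcode was a mature cell in both libraries, and 17 wild-type mature cells shared a barcode with a kept cell of the wild-type CD25+ library. In the other pairs of libraries such sharing touched between 1 and 14 mature cells of either CD25− library.

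Mature cells made up 32.6% of kept wild-type cells (31.0% to 34.3%, exact Clopper-Pearson interval) and 30.8% of kept knockout-labelled cells (28.6% to 33.0%). These intervals hold counting error within 1 library each, and the distance between the shares changed with the setting. With at least 3 UMIs of Klf2 and S1pr1 the shares were 27.9% and 28.0%. From Klf2 alone they were 23.7% and 22.4%, and with doublets left out 32.9% and 31.4%. Without the cells under 10% ribosomal UMIs the shares were 38.0% (35.9% to 40.2%) of 2050 and 32.0% (29.6% to 34.4%) of 1448. With at least 1000 genes and under 5% mitochondrial UMIs they were 38.9% (36.8% to 41.0%) and 33.4% (30.9% to 35.9%), and in cells thinned to 3000 UMIs 36.5% (34.3% to 38.7%) and 30.8% (28.4% to 33.3%). The immature counterpart was 30.3% of wild-type (28.7% to 32.0%) and 34.0% of knockout-labelled kept cells (31.8% to 36.3%), but 36.6% of both without the cells under 10% ribosomal UMIs, and 35.7% and 35.6% with the stricter filter. Since a UMI minimum finds fewer cells where depth is low, each kept cell with enough UMIs was also thinned to 1500 UMIs, leaving out 542 wild-type and 93 knockout-labelled cells, and the selection repeated. It then held 24.7% of wild-type (23.0% to 26.4%) and 21.7% of knockout-labelled cells (19.8% to 23.8%).

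How firmly a mature cell met the selection varied. Klf2 and S1pr1 UMIs were both present in 70.3% of wild-type and 77.9% of knockout-labelled mature cells, Klf2 alone in 18.2% and 14.5%, and S1pr1 alone in 11.5% and 7.54%. The summed count of both genes had a median of 6 in wild-type and 7 in knockout-labelled cells. At the limit of 2 lay 148 wild-type (14.6%) and 49 knockout-labelled (9.01%) cells.

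Slfn1, a Schlafen family gene tied to T cell quiescence, and Itgb7 mark mature cells but took no part in the selection, although both vary with genes that did. Slfn1 was at 466 CPM in wild-type and 548 CPM in knockout-labelled mature cells, against 119 and 113 CPM in the immature counterpart. Itgb7 was at 309 and 341 CPM in mature cells, against 80.0 and 99.0 CPM. Just inside the limit, at 2 UMIs of Klf2 and S1pr1, Slfn1 stood at 450 and 538 CPM and Itgb7 at 229 and 250 CPM. Just outside, at 1 such UMI and none of Itm2a or Ccr9, Slfn1 stood at 415 and 385 CPM and Itgb7 at 190 and 298 CPM in 151 wild-type and 37 knockout-labelled cells. In these 2 genes the cells on both sides of the limit were thus nearer to each other than to the immature counterpart. They were shallow, with a median of 1461 to 2557 UMIs. Sox4, a transcription factor of early single-positive cells, ran the other way, from 292 and 248 CPM in the immature counterpart to 97.7 and 65.6 CPM in cells with at least 5 UMIs of Klf2 and S1pr1.

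**Figure D1:**
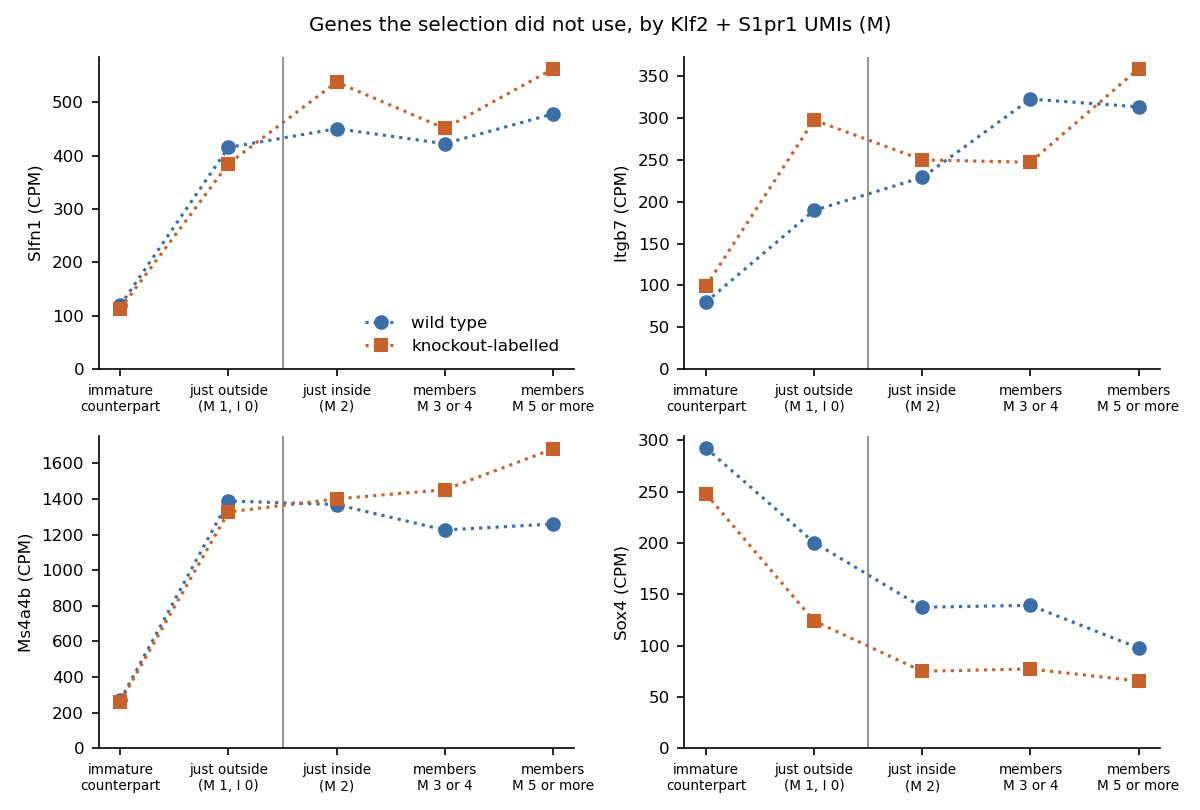
Summed expression (CPM, linear axis) of 4 genes not used in the selection, in classes of cells ordered by their Klf2 and S1pr1 UMIs (M) and Itm2a and Ccr9 UMIs (I), for the wild-type (circles) and knockout-labelled (squares) CD25− libraries; the vertical line marks the limit of the selection. Slfn1 was at 119 and 113 CPM in the immature counterpart and at 450 and 538 CPM just inside the limit.

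Pdlim4, S1pr4 and Igfbp4 were among the genes highest in mature cells over their immature counterpart, and Nrgn, Asb2 and Ccr4 among the lowest. As the selection separates these classes, and genes were ranked by the smaller fold of the 2 libraries, the differences and their likeness between libraries are a description. Pdlim4, which encodes a PDZ and LIM domain protein, was at 29.2 CPM in wild-type mature and 1.65 CPM in wild-type immature cells, 17.7-fold (8.75 to 41.7). In the knockout-labelled library it was at 63.8 and 3.67 CPM, 17.4-fold (10.3 to 31.6). S1pr4, a second sphingosine-1-phosphate receptor, was at 133 and 16.1 CPM in wild-type mature and immature cells (8.24-fold) and at 161 and 21.7 CPM in the knockout-labelled library (7.39-fold). Igfbp4, which encodes a secreted binding protein of insulin-like growth factors, reached 950 CPM in wild-type and 1357 CPM in knockout-labelled mature cells, 6.00-fold and 6.54-fold above the immature counterpart. The others of the 10 highest by the smaller of the 2 folds were Emc9 (8.81-fold and 10.1-fold), Rflnb (8.28-fold and 14.5-fold), Sntb1, Arsb, St8sia6, Ifit3 and Ifit1bl1, the last 2 being interferon-induced.

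At the other end, Nrgn, which encodes the calmodulin-binding protein neurogranin, was at 1.16 CPM in wild-type and 1.48 CPM in knockout-labelled mature cells, against 57.7 and 170 CPM in the immature counterpart. Ccr4, a chemokine receptor of newly selected thymocytes, was at 1.94 and 1.18 CPM in mature cells, against 70.7 and 72.6 CPM. Asb2, Ctla2a, Myo6, Chl1, Cd24a, F13a1, Chdh and Id2 completed the 10 lowest. Id2, an inhibitor of E-protein transcription factors, was at 37.9 and 44.0 CPM in mature cells, 9.26-fold and 7.65-fold below the immature counterpart.

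Among genes at 20 CPM or more in either class, 473 of 6908 (6.85%) exceeded the counterpart by 1.5-fold or more in wild-type mature cells, and 655 (9.48%) fell short of it by as much. In the knockout-labelled library 547 of 6935 (7.89%) were higher and 1037 (15.0%) lower. The 385 genes higher in both were 81.4% of the wild-type and 70.4% of the knockout-labelled set, the 482 lower in both were 73.6% and 46.5%, and 2 genes went opposite ways. The median gene lay at −0.12 (log2) in wild-type and −0.17 in knockout-labelled cells, and with each comparison centred on its median the counts were 623 higher and 420 lower, and 813 higher and 612 lower.

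By function, all 26 genes of a late maturation and quiescence list were above a ratio of 1 in both libraries, with a median log2 ratio of 1.20 in wild-type and 1.34 in knockout-labelled cells, where all 10419 and 10176 genes with at least 20 UMIs had medians of −0.12 and −0.17. Among them Klf3, a KLF2-related repressor, was 4.27-fold and 6.00-fold higher, Ms4a4b, a membrane protein of mature T cells, 4.66-fold and 6.31-fold, and Foxo1, the transcription factor upstream of Klf2, 2.73-fold and 2.95-fold. Ccr7, which draws cells to the medulla, was at 419 and 638 CPM in immature and mature wild-type cells and at 341 and 594 CPM in the knockout-labelled library. Of the 11 measured egress and homing genes outside the selection, 7 were above 1 in each library, and the integrin genes Itgb1, Itgal and Itgb2 and the receptor gene Gpr183 were below.

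All 23 interferon-induced genes in the files were above 1 in mature cells of both libraries, with medians of 0.91 in wild-type and 1.06 in knockout-labelled cells. The Gimap GTPases, which support the survival of naive T cells, were above 1 in 7 of 8 in both, led by Gimap3 (3.02-fold and 4.08-fold), with Gimap9 the exception. Of the 14 genes of an immature list with at least 20 UMIs, 12 were below 1 in both libraries, with medians of −1.55 and −1.90, and Rflnb and Chd7 were above. The T cell receptor response list had medians of −0.45 in wild-type and −1.04 in knockout-labelled cells. In it Cd69, an early activation antigen that opposes egress, was at 164 and 78.8 CPM in immature and mature wild-type cells and at 207 and 73.5 CPM in the knockout-labelled library. Nuclear genes of oxidative phosphorylation were below 1 in 13 of 14 in both, with medians of −0.29 and −0.44. Past 1.5-fold lower were 0 of these 14 in wild-type and 2 in knockout-labelled cells. Among all genes at 20 CPM or more, 9.48% and 15.0% were as far lower. Of all genes, 37.9% and 35.3% were above 1 in these comparisons. The T cell receptor complex list had medians of −0.15 and −0.14, which lie on either side of the median gene, and so has no direction here once centred. Il7r, the interleukin-7 receptor, was 2.26-fold lower in wild-type and 2.71-fold lower in knockout-labelled mature cells.

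**Figure D2:**
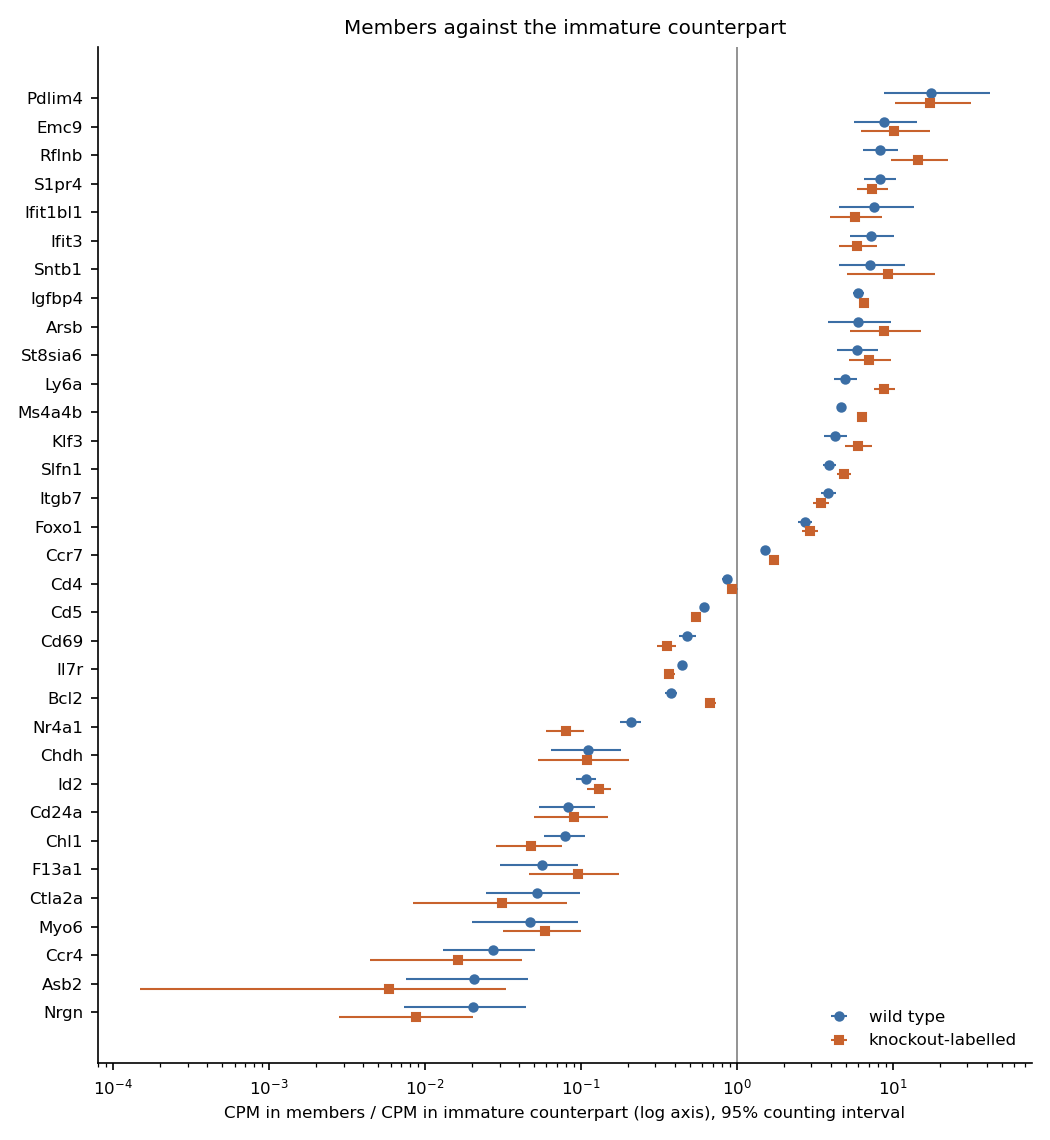
Ratio of CPM in mature cells (members of the selection) to CPM in the immature counterpart, on a log axis, for the 10 highest, the 10 lowest and 13 other named genes, in the wild-type (circles) and knockout-labelled (squares) libraries; bars are 95% counting intervals. Pdlim4 lay at 17.7 and 17.4, and Bcl2 at 0.38 and 0.68.

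Promoters are shown for one gene of the homing group and 3 interferon-induced genes, which were higher in mature cells than in the counterpart. Each is the 250 bases before the transcription start in RefSeq (GRCm38.p6), read 5′ to 3′ on the gene's strand. In Itgb7, a gene of the homing group, capitals mark CACCC or its reverse complement GGGTG, the core recognised by Krüppel-like factors, with 4 matches. This short motif occurs in 52.0% of 32851 such windows in 8 of the 9 windows (88.9%) found for the egress and homing list, in 22 of 36 (61.1%) for the late maturation list, in 13 of 19 (68.4%) for the interferon list and in 23 of 31 (74.2%) for the immature list, so it was also common among genes that ran the other way. In the interferon-induced genes Ifit3, Isg15 and Oas1a, capitals mark GAAA, any 2 bases and GAAA again, or the reverse complement of this string, the core of the interferon-stimulated response element, with 2, 3 and 2 matches, which can overlap each other. It occurs in 2.98% of all windows and in 8 of 19 windows (42.1%) of the 15 interferon-list genes that matched. A match is a string of letters and not a shown site.
Itgb7, minus strand, chr15:102231936-102232185: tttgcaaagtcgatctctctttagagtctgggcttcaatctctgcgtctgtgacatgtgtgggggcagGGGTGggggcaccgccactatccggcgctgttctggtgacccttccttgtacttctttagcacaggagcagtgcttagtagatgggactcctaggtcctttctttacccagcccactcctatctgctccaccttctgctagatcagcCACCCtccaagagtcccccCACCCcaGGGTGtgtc
Ifit3, plus strand, chr19:34583279-34583528: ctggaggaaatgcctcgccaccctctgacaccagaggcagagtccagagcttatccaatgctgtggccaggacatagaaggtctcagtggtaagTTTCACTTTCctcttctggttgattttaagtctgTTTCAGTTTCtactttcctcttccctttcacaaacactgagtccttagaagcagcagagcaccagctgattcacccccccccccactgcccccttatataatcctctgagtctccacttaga
Isg15, minus strand, chr4:156200819-156201068: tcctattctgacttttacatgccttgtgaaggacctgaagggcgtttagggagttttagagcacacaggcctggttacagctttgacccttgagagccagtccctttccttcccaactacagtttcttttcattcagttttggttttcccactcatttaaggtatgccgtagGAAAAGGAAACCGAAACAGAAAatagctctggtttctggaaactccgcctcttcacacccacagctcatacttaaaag
Oas1a, minus strand, chr5:120907526-120907775: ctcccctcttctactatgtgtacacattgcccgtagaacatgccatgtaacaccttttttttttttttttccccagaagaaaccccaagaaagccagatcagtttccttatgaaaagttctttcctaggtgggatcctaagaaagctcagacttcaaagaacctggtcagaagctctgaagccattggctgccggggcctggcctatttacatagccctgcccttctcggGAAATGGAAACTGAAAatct

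The main comparison set knockout-labelled against wild-type mature cells. Most genes were close: of 6603 at 20 CPM or more in either library, 115 (1.74%) stood 1.5-fold or more above wild type in the knockout-labelled cells and 166 (2.51%) as far below. The median log2 ratio was −0.06. Centred on that median the counts were 141 higher and 118 lower, so the balance between higher and lower genes, 40.9% higher of those called and 54.4% once centred, depended on scaling. Without the shallow set under 10% ribosomal UMIs, 123 were higher and 125 lower, of which 108 and 109 were called with all mature cells. In the immature counterpart 115 of 6875 were higher and 89 lower.

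The genes that define the class were near each other in the 2 libraries. Klf2 was at 949 CPM in wild-type and 852 CPM in knockout-labelled mature cells, and S1pr1 at 407 and 408 CPM. Both were used by the selection, which set their likeness in part, so it is not a result. Among genes that the selection did not use, Ccr7 was at 638 and 594 CPM (ratio 0.93, 0.88 to 0.98), Itgb7 at 309 and 341 CPM (1.11, 1.02 to 1.19) and Foxo1 at 290 and 288 CPM (0.99, 0.92 to 1.08). Of the 11 egress and homing genes, 4 were above and 7 below 1, where 42.1% of all genes were above 1. None was past 1.5-fold higher. Gpr183, a receptor for oxysterols that positions lymphocytes, was past 1.5-fold lower, at 42.8 and 25.1 CPM (0.59, 0.45 to 0.76). Its interval, like every other here, leaves out the variation between animals.

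Bcl2, which encodes the anti-apoptotic protein that keeps resting lymphocytes alive, was about 2 times as high in knockout-labelled mature cells. It lies on the minus strand of chromosome 1, 106538178 to 106714274 (ENSMUSG00000057329, mm10). Bcl2 was at 161 CPM in wild-type and 318 CPM in knockout-labelled mature cells (832 and 1077 UMIs), a ratio of 1.98 (1.80 to 2.17). Single mature cells held at most 12 Bcl2 UMIs in wild-type and 17 in knockout-labelled cells. The immature counterpart had 426 and 470 CPM, a ratio of 1.10 (1.04 to 1.17), and all other kept cells together a ratio of 1.15. Those other cells were unlike between the libraries, with a median of 2110.5 UMIs in wild-type and 6060 in knockout-labelled cells. Under 10% ribosomal UMIs lay 55.1% of them in wild type and 26.8% in the knockout-labelled library. Among those other cells the levels were mixed. In cells with at least 2 UMIs of Klf2 and S1pr1 that had too many of Itm2a and Ccr9 to be selected and were not in the counterpart, 221 and 193 in number, Bcl2 was at 170 CPM in wild-type and 308 CPM in the knockout-labelled library. Just outside the limit, in 151 and 37 cells, it was at 293 and 447 CPM, and in cells without a UMI of these 4 genes it was at 451 and 399 CPM. The difference was thus also present in cells next to the selection. Put otherwise, Bcl2 in wild-type mature cells was 0.38 of the immature level and in knockout-labelled mature cells 0.68. In cells passing the same selection in the CD25+ gate, 195 wild-type and 100 knockout-labelled, Bcl2 was at 277 and 266 CPM (0.96, 0.77 to 1.19). The interval for mature cells of the CD25− gate overlaps neither this interval nor that of the immature counterpart, but the difference between cell classes has no replicate and was not tested. The cells passing the selection in the CD25+ gate were also a different mix. Their double-positive markers summed to 470 and 850 CPM, Treg markers to 1105 and 1917 CPM, and innate-like markers to 219 and 225 CPM. In mature cells of the CD25− gate these sums were 60.2 and 65.0, 373 and 391, and 4.84 and 4.14 CPM. The part of this mix in the ratios was not tested. Without the shallow set the Bcl2 ratio in mature cells of the CD25− gate was 2.11. The other 10 measured members of the Bcl2 family lay within 1.5-fold apart from Bid, which had 41 and 16 UMIs, with Mcl1 at 446 and 482 CPM.

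Nr4a1, an immediate-early nuclear receptor that follows T cell receptor signalling (ENSMUSG00000023034, plus strand of chromosome 15, 101254269 to 101274795, mm10), was lower in knockout-labelled mature cells. It was at 42.4 CPM in wild-type (219 UMIs) and 15.9 CPM in knockout-labelled mature cells (54 UMIs), a ratio of 0.38 (0.27 to 0.51). Its levels in the immature counterpart were 204 and 201 CPM (0.98), while in other kept cells, which were shallower in wild type, the ratio was 1.55. In the CD25+ gate, cells passing the same selection had 54.9 and 24.2 CPM (0.44, 0.21 to 0.83). One wild-type mature cell held 20 of its 219 UMIs. With the selection itself made on cells thinned to 1500 UMIs the log2 ratio was −0.59, against −1.41 with full counts.

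The wider T cell receptor response list had more genes below 1 than above. Of 18 genes with at least 20 UMIs, 5 were above 1 and 13 below, with a median log2 ratio of −0.21 where all 10124 genes had −0.05 and 42.1% above 1. Jun was at 91.2 CPM in wild-type and 57.3 CPM in knockout-labelled mature cells (0.63) and Irf4 at 22.1 and 12.7 CPM (0.58). Cd5, a negative regulator whose level tracks receptor signal strength, was at 477 and 351 CPM (0.74, 0.69 to 0.79) and at 781 and 643 CPM in the immature counterpart (0.82). Cd69 was at 78.8 and 73.5 CPM (0.93, 0.79 to 1.10) and Egr1 at 75.3 and 82.1 CPM (1.09, 0.93 to 1.28), so not every gene of the list was lower. In the immature counterpart 11 of 21 were above 1, with a median of 0.04. The T cell receptor complex and proximal signalling list had 3 of 16 above 1 and a median of −0.24, with Cd3e the highest (1.23) and Thy1 the lowest.

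All 12 measured genes of the immature list outside the selection were below 1 in knockout-labelled mature cells, with a median of −0.29, and Nr4a1 and Sox4 passed 1.5-fold lower. By comparison, 42.1% of all genes were above 1, with a median of −0.05, and 2.51% of those at 20 CPM were past 1.5-fold lower. Sox4 was at 108 and 67.3 CPM (0.62, 0.53 to 0.73), Satb1, a chromatin organiser of thymocytes, at 1006 and 700 CPM (0.70, 0.66 to 0.73), and Tox, a factor of early CD4 cells, at 202 and 163 CPM (0.81). Cd27, the highest of the 12, was at 242 and 226 CPM. In the immature counterpart 6 of 14 such genes were above 1, with a median of −0.03. The list shares Nr4a1, Egr2 and Cd69 with the response list. Without the shallow set 1 of the 12 was above 1, and the median was −0.23. With the selection made on cells thinned to 1500 UMIs, 2 of 10 were above 1, and the median was −0.40.

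The late maturation and quiescence list had 18 of 26 genes above 1, with a median of 0.14, and 4 past 1.5-fold higher. Among all genes 42.1% were above 1, with a median of −0.05, and 1.74% of those at 20 CPM were past 1.5-fold higher. Ms4a4c, a relative of Ms4a4b, was at 14.7 CPM in wild-type and 40.8 CPM in knockout-labelled mature cells (2.77), and H2-Q7, a nonclassical MHC class I gene, at 130 and 262 CPM (2.02). Tsc22d3, a glucocorticoid-induced factor known as GILZ, was at 125 and 205 CPM (1.64, 1.47 to 1.82) and Dapl1 at 14.3 and 27.2 CPM (1.90). The more abundant Ms4a4b was at 1262 and 1641 CPM (1.30, 1.25 to 1.35), Ms4a6b at 673 and 898 CPM (1.34) and Slfn1 at 466 and 548 CPM (1.18). Klf6 (0.66) and Pik3ip1, an inhibitor of PI3 kinase (0.67), were the lowest. Ms4a4c and H2-Q7 were also higher in the immature counterpart (4.05 and 2.42), where Ms4a4b stood at 0.96 and the list had 11 of 26 above 1.

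Interferon-induced genes were higher in knockout-labelled mature cells in 19 of 23, with a median log2 ratio of 0.30, and 6 passed 1.5-fold. For all genes the share above 1 was 42.1%, and 1.74% of those at 20 CPM were past 1.5-fold higher. Iigp1, an interferon-inducible GTPase, was at 60.6 CPM in wild-type and 207 CPM in knockout-labelled mature cells (3.42, 2.99 to 3.92). Ly6a, which encodes the surface antigen Sca-1, was at 165 and 389 CPM (2.36, 2.16 to 2.57), Ifi44 at 11.0 and 32.2 CPM (2.92), and Igtp at 135 and 262 CPM (1.94). Ifi27l2a, the most abundant of the list, was at 1718 and 2649 CPM (1.54), and Zbp1, a sensor of nucleic acids, at 203 and 306 CPM (1.51). Of the list members with response-element letters shown above, Isg15 was at 312 and 343 CPM (1.10) and Ifit3 at 67.3 and 92.8 CPM (1.38). Bst2, Oas2, Ifi209 and Ifi203 were below 1, all above 0.90. Iigp1 and Ly6a were also higher in the immature counterpart, at 2.75 and 1.32, and there 19 of 23 were above 1 with a median of 0.27. In the CD25+ gate, cells passing the selection had Iigp1 at 28.5 and 173 CPM (6.08, 3.93 to 9.68) and Ifi27l2a at a ratio of 1.05. Without the shallow set 19 of 23 genes remained above 1, and 4 passed 1.5-fold.

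Cell by cell the interferon genes formed a broad and overlapping range. In mature cells thinned to 1500 UMIs, the list took a median of 7 UMIs in 939 wild-type cells, with the 5th and 95th percentiles at 1 and 21, and a median of 11 in 530 knockout-labelled cells, with percentiles at 3 and 25. Cells without any such UMI were 1.81% and 0.377%. The same count in the immature counterpart had medians of 3 and 4. The late maturation list took 27 and 31 of 1500 UMIs in mature cells, against 13 and 14 in the counterpart.

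Over all genes, the 10 with the highest ratio in knockout-labelled mature cells began with Ly6c1, a surface marker of the Ly6 family, at 34.3 CPM in wild-type and 150 CPM in knockout-labelled cells (4.37, 3.68 to 5.22). Ly6c1 had 30 and 50 UMIs in the immature counterpart (1.97) and at 31.5 and 80.5 CPM in cells passing the selection in the CD25+ gate (2.56). Abca1, which exports cholesterol, had 62 and 148 UMIs (3.64, 2.69 to 4.98), and H1f0, a linker histone of resting cells, at 29.4 and 105 CPM (3.55). Akr1c13, an aldo-keto reductase, had 32 and 78 UMIs (3.72), and Glipr2 was at 14.5 and 44.3 CPM (3.05). Oas1a, an antiviral synthetase, was at 23.4 and 62.0 CPM (2.65). Iigp1, Ifi44, Ms4a4c and Ly6a completed the 10. Of these, Glipr2 had an interval that included 1 in the immature counterpart (1.20, 0.86 to 1.68); the other 9 were higher there too. Ly6c1, Oas1a, Ms4a4c, Akr1c13 and H2-Q7 have close paralogs, and the sources used here do not say how reads shared between them were counted, so their values are uncertain.

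Among the 10 lowest, Gzma rested on a single cell. It had 154 UMIs in wild-type and 3 in knockout-labelled mature cells, and 147 of the 154 lay in 1 wild-type cell that also held 135 Ccl5 and 28 Nkg7 UMIs, 13 of Cd3e and none of Cd4. Hspa8, the constitutive Hsc70 chaperone, was at 1558 CPM in wild-type and 436 CPM in knockout-labelled mature cells (0.28, 0.26 to 0.30), and Thy1, which encodes a GPI-anchored T cell antigen, at 579 and 173 CPM (0.30). Their ratios in the immature counterpart were 0.28 and 0.22, and in cells passing the selection in the CD25+ gate 0.19 and 0.28, so both differences were as large outside the mature cells of this gate. Irf2bp2, a transcriptional corepressor, was at 115 and 46.7 CPM (0.41), with 0.41 in the counterpart and 1.02 in the CD25+ gate. Traf1, an adaptor of TNF receptor signalling, was at 49.2 and 24.8 CPM (0.50) and at 0.48 in the counterpart. Tubb2a (0.46), Ahsa2 (0.48), Abcc5 (0.50), Grwd1 (0.50) and Nr4a1 made up the rest.

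**Figure D3:**
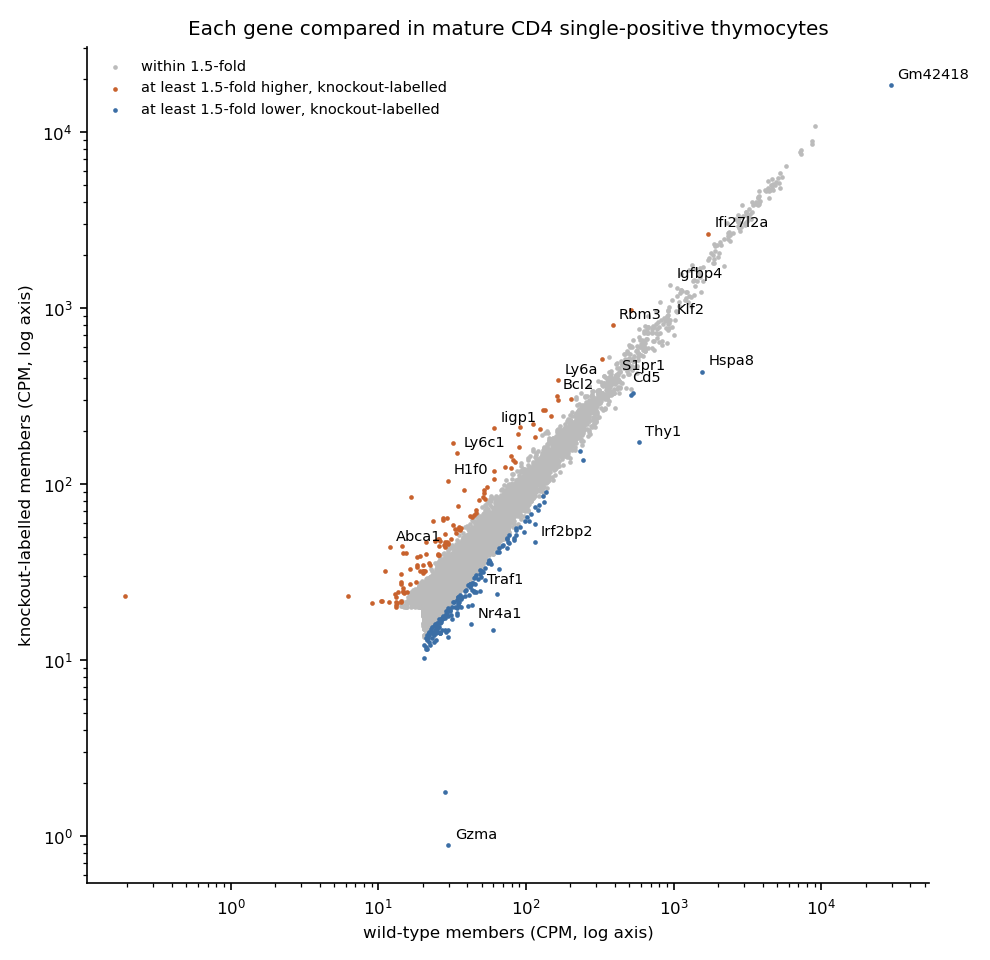
Each of the 6603 genes at 20 CPM or more in either library, plotted by its CPM in wild-type (horizontal) and knockout-labelled (vertical) mature cells on log axes; coloured points lie at least 1.5-fold apart. The 115 higher genes include Ly6c1 and Iigp1, and the 166 lower genes include Hspa8, Thy1 and Nr4a1; Gzma rests on 1 cell.

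**Figure D4:**
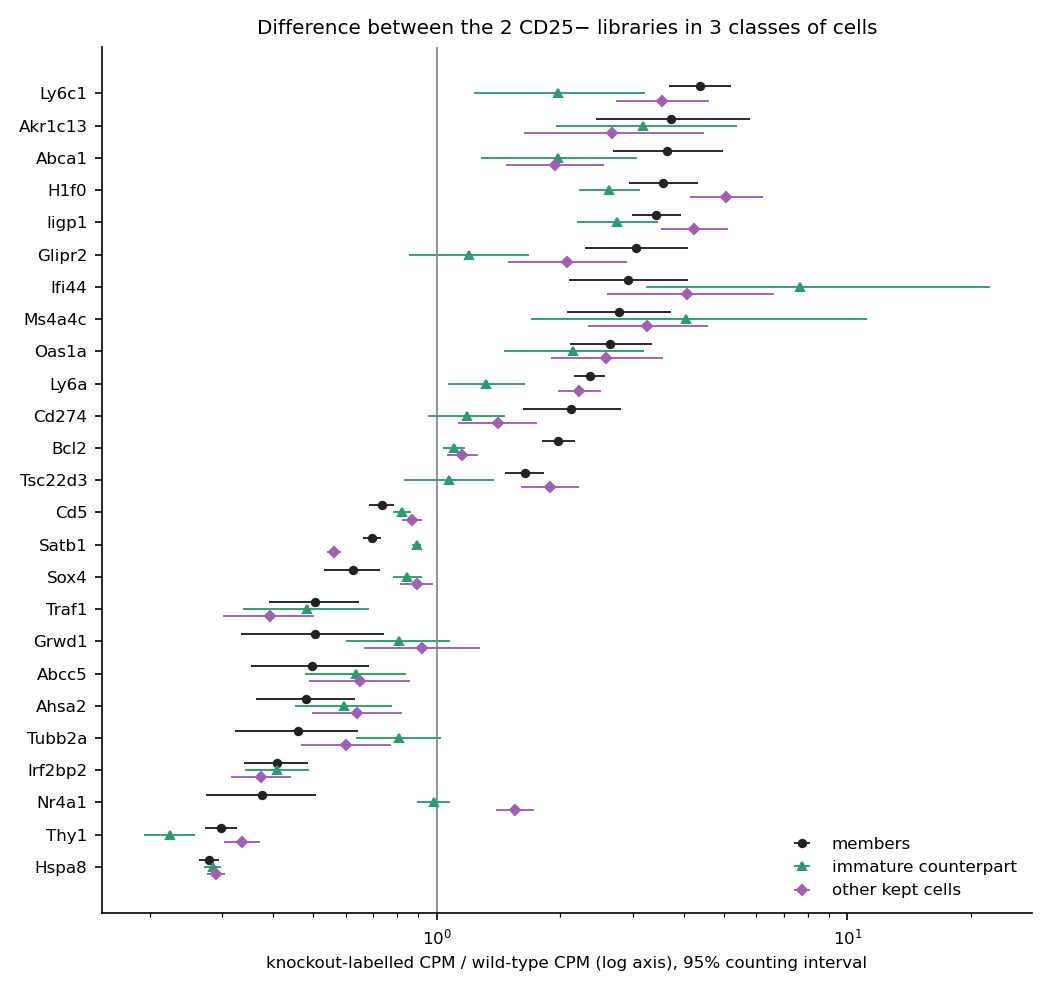
Ratio of knockout-labelled to wild-type CPM on a log axis, with 95% counting intervals, in mature cells (circles), the immature counterpart (triangles) and all other kept cells of the gate (diamonds), for 19 of the 20 highest and lowest genes (without Gzma) and 6 others. Hspa8 lay at 0.28 in mature cells and in the counterpart, whereas Bcl2 lay at 1.98 and 1.10. The other kept cells had a median of 2110.5 UMIs in wild-type and 6060 in knockout-labelled cells.

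Of the list of heat shock chaperones and cold-inducible RNA-binding proteins, 9 of 12 genes were below 1, with a median of −0.28 over the whole list. All 9 were chaperone genes, and Hspa1b (1.02) was the chaperone gene above 1. The 2 cold-inducible genes were above 1, as were 42.1% of all genes, whose median was −0.05. Cirbp was at 88.6 and 191 CPM (2.16, 1.91 to 2.44) and Rbm3 at 387 and 801 CPM (2.07, 1.95 to 2.19) in wild-type and knockout-labelled mature cells. Both were as far apart in the immature counterpart (1.98 and 2.28). Gm42418, a gene model that overlaps ribosomal RNA, took 2.96% of the UMIs of wild-type and 1.85% of those of knockout-labelled mature cells. Their part in the other differences was not tested.

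Genes of the PD-1 pathway and other co-receptors were below 1 in 7 of 9 and above 1 in 2, with a median of −0.22. Of all 10124 genes, 42.1% were above 1, with a median of −0.05. Cd274, which encodes the ligand PD-L1, was past 1.5-fold higher, at 18.2 and 38.7 CPM (2.13, 1.62 to 2.80), against 1.18 in the counterpart and 0.38 (0.11 to 1.01) in the CD25+ gate. Ctla4 was at 23.8 and 12.7 CPM (0.53, 0.37 to 0.76), Cd28 at 290 and 219 CPM (0.75), and Ptpn6, the phosphatase SHP-1, at 199 and 134 CPM (0.67). Ptpn11, the phosphatase SHP-2 that binds PD-1, was at 52.5 and 44.9 CPM (0.86, 0.70 to 1.05). Among cytokine genes, Il2 had no UMI in mature cells of either library. Il7r was at 288 and 223 CPM (0.77, 0.71 to 0.85). Socs1, a feedback inhibitor of cytokine signalling, was at 82.2 and 136 CPM (1.66, 1.45 to 1.90), with 1.45 in the counterpart. The common gamma chain list as a whole had 8 of 14 above 1 and a median of 0.07, and TNF receptors 8 of 10, led by Tnfrsf25 (1.49).

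The remaining groups held no gene past 1.5-fold at 20 CPM or more. Oxidative phosphorylation genes were above 1 in 6 of 14, with a median of −0.02. Cell cycle genes, of which Mki67 was limited by the selection, were above 1 in 6 of 11 with a median of 0.07, and in the immature counterpart in 12 of 12 with a median of 0.41. With the selection made on cells thinned to 1500 UMIs, 11 of 11 cell cycle genes were above 1 in mature cells. Their median was then 0.64, and 6 of them were past 1.5-fold. Of 7041 genes at 20 CPM or more in that setting, 553 were as far higher, against 115 of 6603 with full counts. The Mki67 limit then applied to thinned counts, so cells excluded at full depth could pass. Cell cycle genes above 1 over the immature counterpart were then 7 of 13 in knockout-labelled and 5 of 10 in wild-type cells. With full counts they were 1 of 12 and 4 of 13. The part of newly passing cells was not tested. Gimap genes were above 1 in 1 of 8, with a median of −0.12, and lineage regulators in 4 of 18, with a median of −0.20, where 42.1% of all genes were above 1 with a median of −0.05. Their medians in the immature counterpart were −0.29 and −0.06. Among lineage regulators, Gata3 (1.31) was the highest and Zbtb7b, which encodes the CD4 lineage factor ThPOK, stood at 88.8 and 68.5 CPM (0.77).

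**Figure D5:**
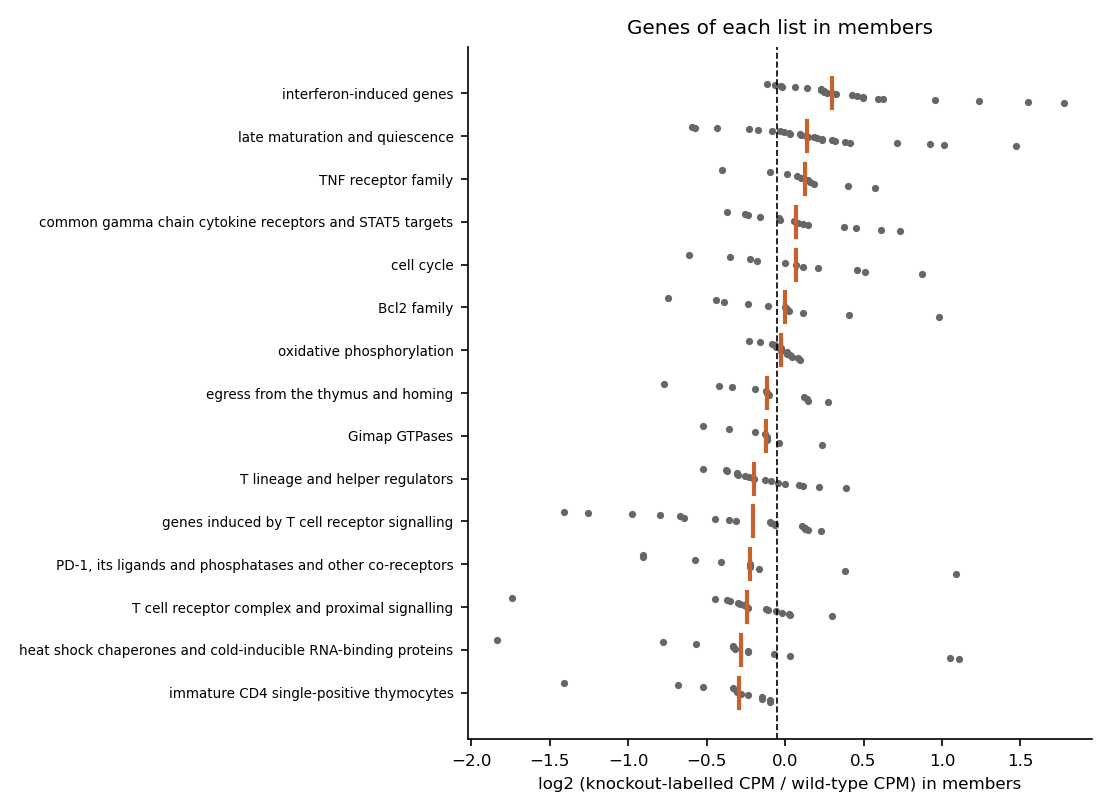
Log2 ratio of knockout-labelled to wild-type CPM in mature cells for each gene with at least 20 UMIs in 15 lists (points, one per gene), with the list's median (bar) and the median of all 10124 genes (dashed line at −0.05); genes used by the selection are left out. The interferon-induced list has the highest median, 0.30, and the immature list the lowest, −0.29.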

How the data were processed

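Single-cell transcripts were counted in 4 libraries, of which the wild-type and knockout-labelled CD25− libraries were analysed and the CD25+ libraries served for comparison. The authors deposited UMI counts per gene and barcode over 32285 genes, raw and whole. Cell Ranger 6.2.1 and mm10 are named per the submitters' processing notes, and version 6.1.2 per the file headers. The sources used here do not give how barcodes were called as cells. Gene positions came from GENCODE vM21.

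Barcodes with at least 500 genes and under 10% mitochondrial UMIs were kept, which left 3118 of 5315 wild-type and 1767 of 3577 knockout-labelled barcodes. Doublets stayed in the main values and were removed as an alternative with Scrublet (scanpy 1.11.5). Within a class, the cells' UMIs were added up and scaled to CPM. Levels and ratios have exact Poisson and conditional binomial intervals (SciPy 1.17.1), and shares have Clopper-Pearson intervals, at 95%. Genes at 20 CPM or more in either group were called at a 1.5-fold difference, and lists were summarised over genes with at least 20 UMIs. The code was tested on simulated data.

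The cells and lists were chosen with earlier results of these data known. Named genes were the 10 highest and 10 lowest of each comparison with at least 100 UMIs, the 2 extremes of each list, and 27 genes always reported. Between the libraries, ranked genes also needed an interval leaving out 1 and the same direction with cells weighted equally. Against the immature counterpart genes were ranked by the smaller fold of the 2 libraries, without these conditions. Receptor segments and sex-linked, mitochondrial, ribosomal protein, hemoglobin and unnamed genes were left out. Other genes that the text names from the lists were chosen after their values were seen.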

Additional observations from a re-analysis of the deposited data

How the results depend on the processing

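Alternatives were a stricter cell filter (1000 genes, 5% mitochondrial), thinning, at least 3 UMIs of Klf2 and S1pr1, Klf2 alone, doublets left out, a total without dominant genes, centring, cells weighted equally, other CPM minimums and, chosen after seeing the data, only cells with at least 10% ribosomal protein UMIs and omission of the Gzma cell. Of the results that answer a comparison, 175 values kept within the spread or 1.5 times and 42 did not; the cause was not tested beyond the settings' own construction.

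The mature share was 38.9% in wild-type and 33.4% in knockout-labelled cells with the stricter filter, 24.7% and 21.7% thinned to 1500 UMIs, 36.5% and 30.8% thinned to 3000, 27.9% and 28.0% with at least 3 UMIs, 23.7% and 22.4% from Klf2 alone, and 38.0% in wild-type at 10% ribosomal or more. Genes higher and lower in knockout-labelled mature cells numbered 553 and 779 thinned, 204 and 303 at a minimum of 10 CPM, 54 and 49 at 50, and 497 and 630 with none, and 325 were lower with equal weights. Against the immature counterpart, thinning gave 806 and 922 higher in wild-type and knockout-labelled cells and centring 420 and 612 lower. A minimum of 50 CPM gave 296 higher and 308 lower in wild-type and 351 and 501 in knockout-labelled cells, and no minimum 906 and 1502, and 946 and 1980. Genes above 1 in knockout-labelled mature cells were 1, 2 and 1 of the immature list (doublets out, thinned, 10% ribosomal), 11 of cell cycle (thinned), 11, 11 and 2 of oxidative phosphorylation (thinned, equal weights, 10% ribosomal), 3, 2 and 2 of Gimap (thinned, centred, equal weights) and 5 of the receptor complex (centred). Of the named genes' log2 ratios 604 values kept their size, 41 moved and Tyms turned to 0.34 when thinned.

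No paired analysis was possible because each group was 1 library, and none was left out. Levels under about 20 CPM rest on under 100 UMIs, and cells of low depth pass the selection less often.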

Other observations

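Mature cells were also described with and without an S1pr1 transcript. After thinning to 2000 UMIs, S1pr1 was found in 435 of 848 wild-type (51.3%) and 275 of 505 knockout-labelled mature cells (54.5%). Since cells without Klf2 needed S1pr1 to be selected, the split is a description. Klf2 stood at 928 CPM with and 1008 CPM without S1pr1 in wild-type cells, and Ccr7 at 601 and 665 CPM. Tnfaip3, a brake on NF-κB signalling, was 1.95-fold higher with S1pr1 in wild-type and 2.47-fold in knockout-labelled cells, Bach2 1.51-fold and 1.41-fold, and Klf3 stood at ratios of 1.52 and 1.23. T lineage regulators were higher in 14 of 17 and 13 of 17, with median log2 ratios of 0.27 and 0.25. All genes had a median of 0.06 in each library, with 57.1% and 56.3% above 1. Genes of the immature list were higher with S1pr1 in 8 of 10 and 8 of 9, with medians of 0.30 and 0.25. Those of the late maturation list were higher in 17 of 25 and 20 of 26, with medians of 0.12 and 0.14. Oxidative phosphorylation genes were lower in 13 of 14 and 12 of 14, with medians of −0.18 and −0.20, and heat shock genes in 10 of 12 in both. Stmn1, a microtubule regulator of cycling cells, was at 0.54 and 0.71.

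The same selection held 195 of 8215 kept cells (2.37%) of the wild-type and 100 of 10110 (0.989%) of the knockout-labelled CD25+ library, with medians of 4473 and 3993.5 UMIs. There Cd24a was at 113 and 119 CPM, against 5.23 and 4.73 CPM in mature cells of the CD25− gate, and Slfn1 at 368 and 296 CPM.

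Near Pdcd1 on chromosome 1, 1 of 19 measured genes within 5 Mb was past 1.5-fold between knockout-labelled and wild-type mature cells (Stk25, 0.66). Within 10 Mb there were 3 of 39, and within 20 Mb 4 of 63. These 4 were Stk25, Usp40 (0.59), Sp140 (1.52) and Bcl2, at a distance of 12.5 Mb. In all, 4.88% of the 369 measured genes of chromosome 1 were past 1.5-fold, against 5.26% within 5 Mb, 7.69% within 10 Mb and 6.35% within 20 Mb of Pdcd1. Over all 6603 genes, 1.74% were as far higher and 2.51% as far lower. By autosome the share ran from 2.79% (chromosome 14) to 6.59% (chromosome 19).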
